A study of Mus musculus with 2 samples.

Results

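Leptin signalling was described by 10 genes taken by symbol: the hormone gene Lep, its receptor gene Lepr, the kinase genes Jak1 and Jak2, the transcription factor genes Stat3, Stat5a and Stat5b, and the inhibitor genes Socs2, Socs3 and Ptpn1. All 10 were found among the 38087 Ensembl genes of the deposited tables, and 8 were measured, which means listed in at least 1 library. Levels are in RPKM, reads per kilobase of gene and per M reads of the library, and only genes above 1 RPKM are listed. The study sorted parietal cells, which secrete gastric acid, from stomachs of C57BL/6 mice, and sequenced 1 library from mice on a high fat diet (HFD) and 1 from control mice. The sources used here do not give the age, sex or number of mice, the composition or length of the diets, or the sorting markers. Both libraries lack a replicate, so diet could not be tested and each comparison sets 1 library beside the other.

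Leptin is a hormone of fat tissue that the stomach also makes, and it reports energy stores to the brain and to peripheral tissues. The long form of its receptor has no kinase of its own. It holds the kinase JAK2, which on leptin binding phosphorylates the receptor tail, where STAT3 and STAT5 dock, are phosphorylated and move to the nucleus. SOCS3, which STAT3 induces, and the phosphatase PTP1B, encoded by Ptpn1, shut the signal off, and both are known for leptin resistance in diet-induced obesity. Growth hormone, prolactin, interferons and cytokines of the interleukin 6 family use the same JAK and STAT proteins.

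Spacing of the deposited values put the depth at 25.49 M reads (HFD) and 9.84 M (control). The 95% intervals beside levels and ratios come from estimated reads, are approximate and hold counting error alone. The proton pump gene Atp4a, which defines parietal cells, stood at 4997 (HFD) and 4324 RPKM (control), and pairs of values below follow this order. Of 13 measured parietal markers 11 were higher in the HFD library and 2 lower, beside 44.0% and 56.0% of measured protein-coding genes. More than 2-fold higher were 4 of the 13, beside 8.02% of protein-coding genes. Markers of other gastric cells also had high levels, among them Pgc of chief cells at 45624 and 102292 RPKM and Gkn1 of pit cells at 21736 and 5021 RPKM. Other markers of these cells did not all share such differences. Of 4 measured chief markers 3 were lower, and Bhlha15 was higher at 10.1 and 8.25 RPKM. Of 5 measured pit markers 4 were higher, Psca by little at 2730 and 2675 RPKM, and Tff1 was lower at 2960 and 3003 RPKM. Pancreatic acinar markers were lower in 8 of 8 cases, with a summed level of 1797 and 13552 RPKM, and 6 of the 8 were listed in the control library only. Clps made up nearly all of the sum, at 1790 and 12989 RPKM, and Cel, also listed in both, stood at 6.655 and 87.46 RPKM. Of the 7 endocrine markers 6 were lower in the HFD library, as were 8 of 8 fibroblast and 6 of 6 smooth muscle markers, whereas 6 of 7 measured leukocyte markers were higher, none above 14.8 RPKM. In such bulk libraries, fewer cells of a type and less RNA per cell cannot be told apart.

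The ligand and its receptor were both below the floor. Lep (ENSMUSG00000059201, chromosome 6, 29060220 to 29073877, mm10, plus strand) was listed at 0 in each library. At its exon length of 3354 bases the floor of 1 RPKM corresponded to about 85.5 HFD reads and 33.0 control reads. Lower levels are not listed, so a value of 0 does not mean that the transcript was absent. Lepr (ENSMUSG00000057722, chromosome 4, 101717404 to 101815352, plus strand) was likewise listed at 0 in both libraries, where the floor corresponded to about 180 and 69.3 reads over 7049 exon bases. Neither transcript can therefore be compared between the diets, and the short and long receptor forms cannot be separated in values per gene. The fat cell markers Adipoq, Plin1, Retn, Cfd and Pck1 were listed at 0 in both libraries too, which left 3 of 8 adipocyte markers measured: Fabp4 at 6.03 and 16.7 RPKM, Lipe at 3.09 and 7.11 RPKM, and Cidec at 0 and 1.55 RPKM.

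Leprot, a neighbour of Lepr whose protein retains the leptin receptor inside the cell, was well detected. Its level was 15.6 RPKM with HFD and 25.4 RPKM in the control library, 1.63 times lower in the HFD library (interval of the HFD over control ratio 0.548 to 0.692). In the GENCODE annotation Leprot ended 58.0 kb before Lepr began on the same strand, so the models share no exon. Its relative Leprotl1 stood at 7.29 and 13.1 RPKM, a ratio of 0.557. Of 6 genes listed as partners of receptor trafficking and leptin action, 5 were lower in the HFD library, beside 56.0% of measured protein-coding genes. Prdm16, a transcription regulator of brown fat, was higher at 19.6 against 14.3 RPKM. None of the 6 passed 2-fold as deposited, beside 8.02% of protein-coding genes higher and 20.1% lower. Without the 20 most abundant genes in the scale, 2 passed 2-fold lower, beside 5641 of all 16037 measured genes. The median difference of the 6 was -0.40 on the log2(RPKM + 1) scale. This is the log2 of RPKM plus 1 in the HFD library minus the same in the control library. Others on this list were Nucb2, the precursor gene of nesfatin, at 11.7 and 15.8 RPKM, and Foxo1, a transcription factor under insulin control, at 3.87 and 4.50 RPKM.

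**Figure D1:**
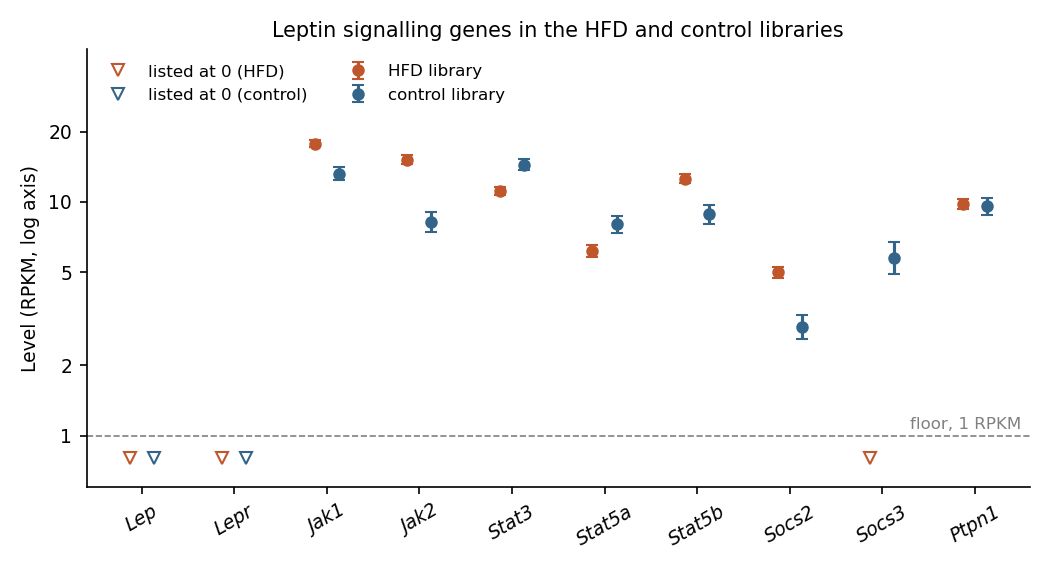
Level of each of the 10 genes in the HFD (orange) and control (blue) library, in RPKM on a log axis; bars are 95% counting intervals from estimated reads, and open triangles mark genes listed at 0, below the floor of 1 RPKM. Lep and Lepr lie below the floor in both libraries and Socs3 in the HFD library alone, while Jak2 stands at 15.2 against 8.24 RPKM and Stat3 at 11.1 against 14.4 RPKM.

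As deposited, both kinase genes stood higher with HFD, Jak1 not under every scaling. Jak2 (ENSMUSG00000024789, chromosome 19, 29251828 to 29313080), the kinase bound to the leptin receptor, had a level of 15.2 RPKM with HFD and 8.24 RPKM in the control library. Its ratio of 1.84 (1.65 to 2.05) was the highest of the 7 members listed in both libraries, and a higher ratio was found for 9.2% of the 9997 protein-coding genes with a level in each. Jak1 (ENSMUSG00000028530, chromosome 4, 101152367 to 101265282), which serves the interleukin 6 and interferon receptors, stood at 17.7 and 13.2 RPKM, a ratio of 1.34 (1.25 to 1.44). On the log2(RPKM + 1) scale the difference of Jak2 stayed above 0 under each of 3 other scalings of the HFD values (0.25 to 1.09), but that of Jak1 went from 0.40 to -0.17 when the 20 most abundant genes were kept out of the total used for scaling. That scaling moved the median of all measured genes from -0.13 to -0.63. Jak1 overlaps Raver2, a gene on the opposite strand that was listed at 0 in both libraries.

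The remaining kinase genes did not share this order. Tyk2, which pairs with interferon and interleukin 12 receptors, stood at 9.76 and 11.03 RPKM, a ratio of 0.885 (0.812 to 0.967). Jak3, the kinase of lymphocyte cytokine receptors, was at 0 with HFD and at 4.12 RPKM in the control library, and its receptor partner Il2rg was listed at 0 in both.

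Of the transcription factor genes, Stat3 and Stat5a were lower and Stat5b was higher in the HFD library, the last of these not under every scaling. Stat3 (ENSMUSG00000004040, chromosome 11, 100885098 to 100939540) was the most abundant member in the control library at 14.4 RPKM and the fourth in the HFD library at 11.1 RPKM. Its ratio was 0.771 (0.722 to 0.824), and its difference of -0.35 on the log2(RPKM + 1) scale lay between -0.89 and -0.08 under the other scalings. Stat5a (ENSMUSG00000004043, chromosome 11, 100859351 to 100885169) stood at 6.18 and 8.02 RPKM, also a ratio of 0.771 (0.696 to 0.854). Stat5b (ENSMUSG00000020919, chromosome 11, 100780731 to 100850724) stood at 12.6 and 8.85 RPKM, a ratio of 1.42 (1.29 to 1.58). Its difference of 0.46 became -0.09 when the 20 most abundant genes were left out of the scale. Of the coding genes listed in both libraries, 32.7% had a ratio below that of Stat3 and 21.9% one above that of Stat5b.

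Comparisons within a library do not depend on how the libraries are scaled. Stat5b stood at 2.04 times the level of Stat5a in the HFD library and 1.10 times in the control library. Jak2 stood at 1.37 times the level of Stat3 in the HFD library and 0.571 times in the control library, and Jak1 at 1.59 and 0.915 times. Stat3 thus stood below both kinase genes in the HFD library. In the control library it stood above Jak2, while its counting interval overlapped that of Jak1. The level of Stat5a relative to Stat3 was 0.556 in both.

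The STAT genes lie side by side. Stat5a runs on the plus strand between Stat5b and Stat3, both on the minus strand. Stat5a and Stat5b run apart from each other, with 8.63 kb between their starts, and the last 72 bases of Stat5a overlap the 3′ end of Stat3. The sources used here name no counting rule, so reads in that overlap may have been counted for either gene. Stat5a and Stat5b are also close paralogs. Over 2294 aligned bases of their longest annotated coding sequences 90.7% were identical, against 60.1% between Stat5a and Stat3, and 11.6% of all 100-base windows of the Stat5a coding sequence occurred unchanged in Stat5b. The longest identical run was 324 bases, from base 571 to base 894 of both coding sequences, counted from 1 at the A of the start codon. Reads inside such runs cannot be assigned to either gene, so the single values of Stat5a and Stat5b are uncertain. The first 60 bases of the identical run (bases 571 to 630, GENCODE M21, GRCm38) are shown to make the ambiguity visible, followed by the 90 bases that differ most (bases 88 to 177), where reads can be told apart. Capitals mark the 28 bases that differ, and each sequence is on the coding strand, 5′ to 3′.
Stat5a and Stat5b, identical: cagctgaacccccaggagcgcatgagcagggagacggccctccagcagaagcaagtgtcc
Stat5a, differing: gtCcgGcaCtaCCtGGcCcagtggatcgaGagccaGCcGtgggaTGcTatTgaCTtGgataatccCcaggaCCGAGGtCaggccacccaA
Stat5b, differing: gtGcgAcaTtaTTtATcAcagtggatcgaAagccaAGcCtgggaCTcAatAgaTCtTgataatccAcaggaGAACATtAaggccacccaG

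Of the other STAT genes, Stat6, which serves interleukins 4 and 13, was the most abundant STAT gene of both libraries at 22.9 and 26.2 RPKM, a ratio of 0.873 (0.814 to 0.937). Stat2, which carries interferon signals, stood at 6.63 and 5.41 RPKM, a ratio of 1.23 (1.08 to 1.40). Stat4, typical of T and natural killer cells, was listed at 0 in both. Of the 5 measured genes among the other JAK and STAT genes, 2 were higher with HFD and 3 lower, beside 44.0% and 56.0% of protein-coding genes. The median of the 5, -0.16, was above 0 under 3 of 8 alternatives.

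The inhibitor gene Socs3 showed the largest difference of the members. Socs3 (ENSMUSG00000053113, chromosome 11, 117966079 to 117970047, minus strand) was at 0 with HFD and at 5.76 RPKM (4.92 to 6.72) in the control library. The control value rested on about 164 reads over 2891 exon bases. In the deeper HFD library a level just under the floor would still have given about 73.7 reads, so the HFD value is at or below 1 RPKM, and no fold is given against it. Of 1325 protein-coding genes between 5 and 7 RPKM in the control library, 64 (4.83%) were listed at 0 in the HFD library. None of 15 widely expressed genes such as Actb, Tbp and Polr2a was listed at 0 in either library, the lowest being Tbp at 2.59 and 1.29 RPKM. These 15 were picked for wide expression, so they give no measure of how often an expressed gene is listed at 0. Markers of cell types differed in both directions. Median differences were -5.61 for pancreatic acinar cells, -2.67 for endocrine cells, -2.30 for smooth muscle, -1.65 for fibroblasts, -1.33 for adipocytes, -1.26 for erythroid cells and -1.03 for endothelium. They were -0.74 for chief and -0.18 for neck cells, and above 0 for leukocytes (1.55), parietal cells (0.46) and pit cells (0.39). The part of cell mixture in the Socs3 difference was not tested.

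Socs2 went the other way. Socs2 (ENSMUSG00000020027, chromosome 10, 95385362 to 95417180), induced by growth hormone through STAT5 and a brake on growth hormone signalling, had a level of 5.0 RPKM with HFD and 2.93 RPKM in the control library. Its ratio was 1.71 (1.499 to 1.96). The interval was 1.30 to 2.27 when reads were estimated from the longest coding transcript of 2222 bases in place of all 9531 annotated exon bases. Its difference stayed above 0 under the 3 other scalings (0.13 to 0.86). Ptpn1 (ENSMUSG00000027540, chromosome 2, 167932057 to 167979385), whose phosphatase acts on JAK2, stood at 9.79 and 9.58 RPKM, a ratio of 1.02 (0.924 to 1.13) whose interval includes 1. Its difference of 0.03 was -0.51 with the 20 most abundant genes left out of the scale.

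Among the members, Socs3 alone held the palindrome TTCNNNGAA, the core letters bound by activated STAT dimers, in the windows from 250 bases before to 50 bases after the annotated starts. The RefSeq promoter table (GRCm38.p6) gave 12 windows for 9 of the 10 genes, Socs2 being the gene without one. The motif reads the same on both strands, was the single motif searched, and occurred in 8.3% of all 32851 windows. The Socs3 window is shown because it is the member with a match and with the largest difference, and that of Cish, a STAT5-induced SOCS gene outside the 10, because it holds 2 copies. Capitals mark the matches, which start at base 97 of the Socs3 window and at bases 251 and 262 of the Cish window. A match describes these letters and is no evidence of binding.
Socs3, chr11:117969317-117969616, minus strand: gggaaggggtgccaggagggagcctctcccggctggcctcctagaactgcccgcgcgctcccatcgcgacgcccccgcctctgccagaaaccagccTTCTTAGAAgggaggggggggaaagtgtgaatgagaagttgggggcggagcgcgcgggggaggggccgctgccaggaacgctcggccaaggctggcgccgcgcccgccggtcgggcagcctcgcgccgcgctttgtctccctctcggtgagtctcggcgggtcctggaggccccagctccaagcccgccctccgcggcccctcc
Cish, chr9:107296409-107296708, plus strand: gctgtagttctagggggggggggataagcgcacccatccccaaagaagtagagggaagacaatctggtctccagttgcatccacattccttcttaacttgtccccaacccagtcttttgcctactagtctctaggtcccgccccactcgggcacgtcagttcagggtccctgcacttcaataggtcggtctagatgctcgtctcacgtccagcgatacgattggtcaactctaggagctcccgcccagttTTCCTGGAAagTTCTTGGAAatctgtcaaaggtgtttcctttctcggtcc

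None of the other SOCS genes passed 2-fold, beside 8.02% of measured protein-coding genes higher and 20.1% lower. Cish stood at 6.74 and 8.52 RPKM, a ratio of 0.791 (0.712 to 0.878). Socs4 stood at 7.12 and 4.69 RPKM (ratio 1.52, 1.34 to 1.73), the highest ratio of the list, and Socs7 at 5.17 and 7.55 RPKM (0.685, 0.616 to 0.763), the lowest. Socs5 (4.14 and 3.89 RPKM) and Socs6 (2.26 and 2.56 RPKM) had intervals that include a ratio of 1. Socs1, the SOCS gene most tied to interferon, was listed at 0 in both libraries, as Lep and Lepr were. The 5 measured genes had 2 higher and 3 lower, beside 44.0% and 56.0% of protein-coding genes. The median of the 5 was -0.13, and 0.08 when protein-coding genes alone set the scale.

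**Figure D2:**
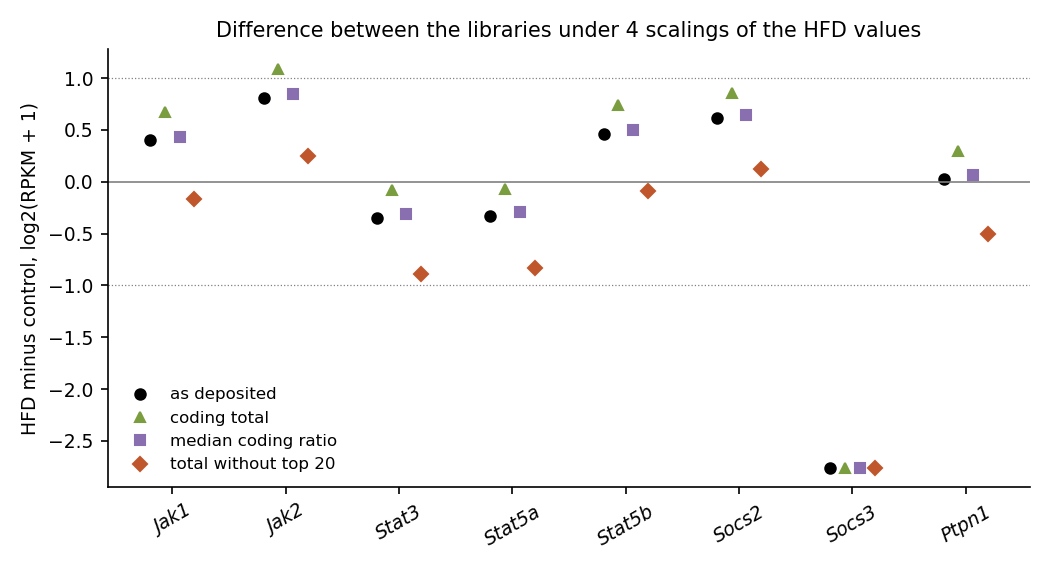
Difference between the HFD and control library for the 8 measured members on the log2(RPKM + 1) scale, with the values as deposited and under 3 other scalings of the HFD values; dotted lines mark 2-fold. Jak2 and Socs2 lie above 0 and Stat3, Stat5a and Socs3 below 0 under all 4, while Jak1, Stat5b and Ptpn1 fall below 0 when the 20 most abundant genes are kept out of the scale (orange). Some of these lie near 0: Socs2 at 0.13 under that scaling, and Stat3 at -0.08 and Stat5a at -0.07 with the coding total. Counting intervals were not recomputed for the other scalings. Rescaling cannot move Socs3, listed at 0 with HFD.

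As deposited, 44.0% of measured protein-coding genes were higher in the HFD library and 56.0% lower. Over the 8 measured members, 5 were higher and 3 lower with the values as deposited, and 2 and 6 when scaled without the 20 most abundant genes. Of these 8, 0 passed 2-fold higher and 1, Socs3, passed 2-fold lower on the log2(RPKM + 1) scale. Across all 16037 measured genes, 12.5% passed 2-fold higher and 23.9% lower, and across 11976 measured protein-coding genes 8.02% and 20.1%. These were 2000 higher and 3833 lower of all measured genes, against 1103 and 5641 without the 20 most abundant genes in the scale, and 2676 and 3369 on a scale set by coding genes. A count of 1 in 8 is below the share of lower genes, and Socs3 passed by construction, as does any gene listed in 1 library only. The members' median difference was 0.21, beside -0.11 for protein-coding genes, and it was 0.42 over the 7 members listed in both and -0.34 with the scaling without the 20 most abundant genes. Under that scaling the median of protein-coding genes was -0.61. For 6 of the 7 members listed in both, the counting interval of the ratio lay apart from 1, which says nothing of variation between mice. The share of all genes with such an interval was not computed, so this count is no result particular to the members.

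Ordered by level, the HFD library ran from Jak1 through Jak2, Stat5b, Stat3, Ptpn1 and Stat5a to Socs2. The control library ran from Stat3 through Jak1, Ptpn1, Stat5b, Jak2, Stat5a and Socs3 to Socs2. In the HFD library no neighbours in this order had overlapping counting intervals. In the shallower control library the intervals overlapped between Stat3 and Jak1 (13.7 to 15.2 and 12.4 to 14.1 RPKM), and along Ptpn1, Stat5b, Jak2 and Stat5a, where each overlapped with the next. Jak1 lay above 78.4% of the protein-coding genes listed in the HFD library and Socs2 above 36.8%, and in the control library Stat3 lay above 74.1% and Socs2 above 22.6%.

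**Figure D3:**
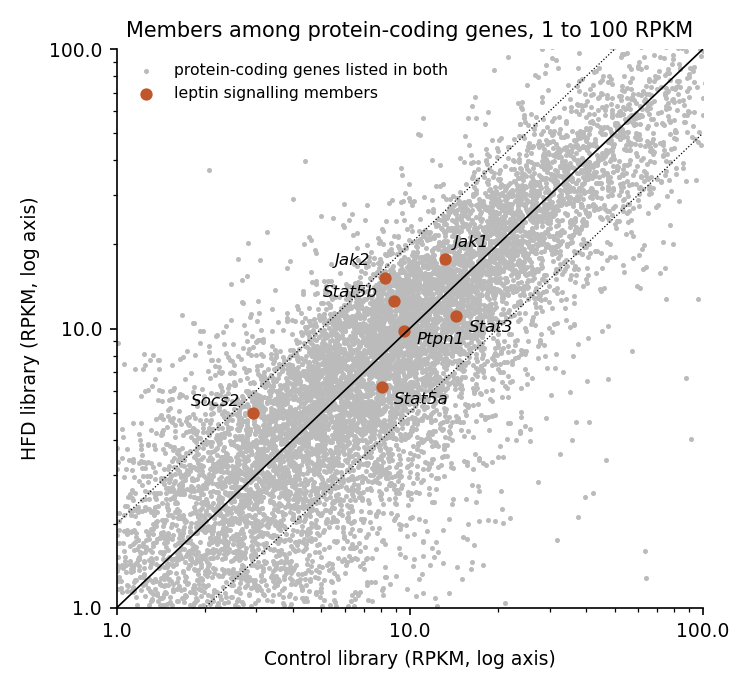
Level of the 7 members listed in both libraries (orange) among protein-coding genes listed in both (grey), control library on the horizontal and HFD library on the vertical axis, in RPKM on log axes cut at 100 RPKM; the solid line marks equal levels and the dotted lines 2-fold. All 7 lie within 2-fold of equality, with Jak2 nearest to the upper line at a ratio of 1.84.

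Adaptors, phosphatases and PIAS genes (Pias1 to Pias4) of the pathway were mostly lower in the HFD library, 12 of 16 measured genes (75.0%), at a median of -0.51. Of all measured protein-coding genes 56.0% were lower, at a median of -0.11. Ptpn11, the phosphatase SHP2 that docks on the leptin receptor, stood at 14.9 and 13.8 RPKM, a ratio of 1.08 (1.01 to 1.16). Sh2b1, an adaptor that raises JAK2 activity, stood at 8.14 and 15.7 RPKM, a ratio of 0.519 (0.467 to 0.578), and Grb2, the adaptor to the RAS pathway, at 9.77 and 14.3 RPKM (0.681). Ptpn6, the phosphatase SHP1, was 2.81 times lower with HFD (4.84 against 13.6 RPKM) and Dusp1, a MAP kinase phosphatase, 2.52 times lower (3.16 against 7.96 RPKM). These were the 2 genes of the list with a whole counting interval beyond 2-fold. Ptprj had the highest ratio, 1.21 (12.7 against 10.5 RPKM). The insulin receptor substrates Irs1 and Irs2, which leptin signalling also uses, stood at 3.60 and 4.70 RPKM and at 7.66 and 11.3 RPKM. Passing 2-fold lower were 3 of the 16 genes, beside 20.1% of protein-coding genes. With the scaling without the 20 most abundant genes 8 passed, beside 5641 of all 16037 measured genes. With the total of protein-coding genes 1 passed, beside 3369 of all measured genes. The median remained below 0 under each of the 8 alternatives (-0.99 to -0.24). These extremes came from the same 2 scalings, under which the median of measured protein-coding genes was -0.61 and 0.14.

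Several other cytokine receptor genes were listed above the floor of 1 RPKM, where Lepr was not. Il11ra1, the interleukin 11 receptor, stood at 33.9 and 22.6 RPKM (ratio 1.497, 1.397 to 1.607). Il6st, the gp130 chain common to the interleukin 6 family, stood at 24.3 and 24.1 RPKM, a ratio of 1.01 (0.962 to 1.05). Ifngr1, the interferon gamma receptor chain, stood at 15.2 and 26.6 RPKM (0.571, 0.520 to 0.627), and its partner Ifngr2 at 12.8 and 13.5 RPKM (0.945, 0.852 to 1.05). The growth hormone receptor gene Ghr stood at 11.6 and 8.13 RPKM (1.42, 1.31 to 1.55) and the interferon alpha receptor gene Ifnar1 at 7.83 and 5.31 RPKM (1.48, 1.30 to 1.68). Il10rb had the lowest ratio, 0.535 (4.49 against 8.40 RPKM), and Ifnlr1, the receptor of interferon lambda, the highest, 1.73 (6.76 against 3.92 RPKM).

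Of 21 receptor genes 16 were measured, 9 higher and 7 lower, with 2 past 2-fold in each direction, beside 8.02% higher and 20.1% lower among protein-coding genes. Without the 20 most abundant genes in the scale 1 passed higher and 4 lower, beside 1103 and 5641 of all 16037 measured genes. With no pseudocount over genes listed in both 0 passed in either direction, beside 1319 higher and 1633 lower of 12439 genes. All 4 as deposited were listed in 1 library only: Epor at 5.36 RPKM and Prlr at 1.47 RPKM in the HFD library, and Il6ra at 2.34 RPKM and Ifnar2 at 1.31 RPKM in the control library. They are named after their values were seen. Il6ra encodes the chain that binds interleukin 6. Of 11976 measured protein-coding genes, 1491 were listed in the control library only and 488 in the HFD library only. The list also holds Il17ra, whose receptor does not use JAK kinases, and without it 8 of 15 were higher, at a median of 0.0086 in place of 0.07. The receptor median was -0.48 with the scaling without the 20 most abundant genes, beside -0.61 for protein-coding genes. Among 14 ligand genes 11 were listed at 0 in both libraries, Il6, Il11, Lif and Osm included. The median of the 3 measured ligand genes was -1.02, with Clcf1 (1.03 RPKM) and Epo (1.30 RPKM) listed in the control library only. Ctf1, which encodes the gp130 ligand cardiotrophin 1, was the one ligand listed in both, at 13.7 and 3.46 RPKM, a ratio of 3.96 (3.05 to 5.23).

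**Figure D4:**
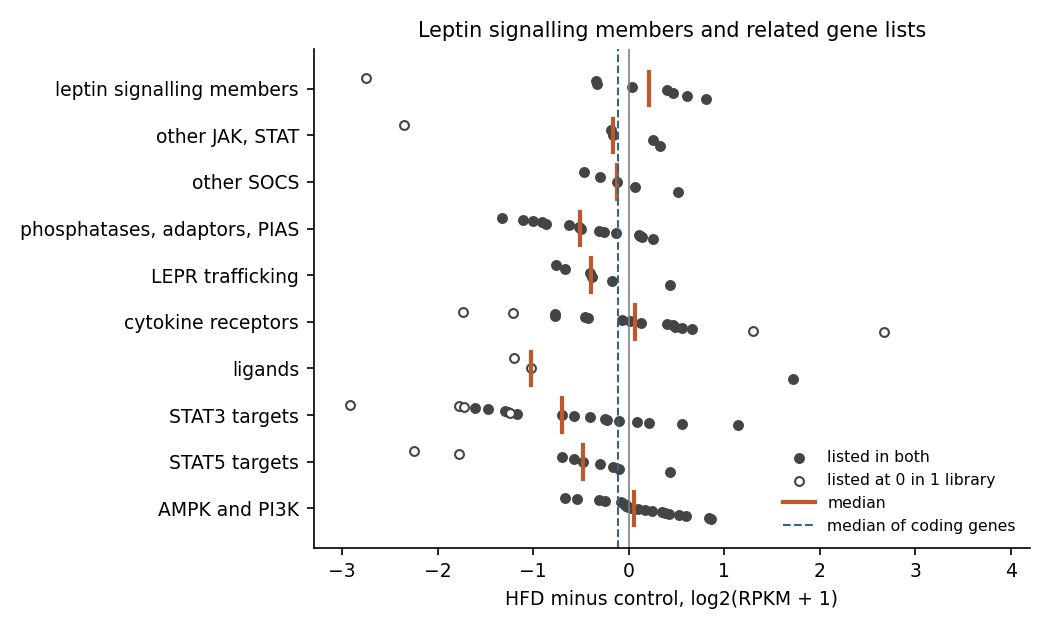
Difference between the HFD and control library on the log2(RPKM + 1) scale for each measured gene of the 10 members and of 9 related lists; filled points are genes listed in both libraries, open points genes listed at 0 in 1 library, orange bars list medians and the dashed line the median of protein-coding genes (-0.11). The medians of STAT3 targets (-0.70), adaptors, phosphatases and PIAS genes (-0.51) and STAT5 targets (-0.48) lie below the dashed line. So does that of partners of receptor trafficking and leptin action (-0.40), labelled LEPR trafficking. The medians of other JAK and STAT genes (-0.16) and other SOCS genes (-0.13) lie close to the dashed line, and that of the members (0.21) above it. The ligand median (-1.02, from 3 genes) is the value of Clcf1, listed in the control library only. It was 1.99 with no pseudocount, from 1 gene listed in both.

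Genes known as STAT3 targets were mostly lower in the HFD library, 15 of 19 measured (beside 56.0% of protein-coding genes), with 9 past 2-fold lower (5 to 11 over the alternatives) and 1 past 2-fold higher. The share past 2-fold lower among protein-coding genes was 20.1%, as given above, and 4 of the 9 were listed at 0 in the HFD library and so passed by construction. Their median of -0.70 stayed below 0 under each of the 8 alternatives (-1.24 to -0.24). The count of 11 and the median of -1.24 came without the 20 most abundant genes in the scale. Under that scaling 5641 of all 16037 measured genes passed 2-fold lower, and the median of protein-coding genes was -0.61. With a whole counting interval beyond 2-fold, Pim3, a kinase, was 2.93 times lower (12.4 against 36.3 RPKM), Myc 2.62 times (8.74 against 22.9 RPKM), Junb 2.31 times (20.4 against 47.2 RPKM), Birc5, a survival and mitosis gene, 2.83 times (3.27 against 9.25 RPKM) and Cebpb, an acute phase transcription factor, 4.15 times (1.86 against 7.71 RPKM). Mcl1, a survival gene of the BCL2 family, was the exception at 54.0 against 23.9 RPKM, a ratio of 2.26 (2.10 to 2.44). The most abundant of the list differed less. The membrane mucin Muc1 stood at 115 and 134 RPKM (0.854), Fos at 62.8 and 74.8 RPKM (0.840) and Vegfa at 48.5 and 32.7 RPKM (1.48). Many of these genes also answer to other signals, and the part of cell mixture in their values was not tested.

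Genes known as STAT5 targets were lower in 8 of 9 cases, beside 56.0% of protein-coding genes, with a median of -0.48 that ranged from -0.81 to -0.30 over the 8 alternatives. The list shares Ccnd1, Bcl2l1, Bcl6 and Pim1 with the STAT3 list and Cish with the SOCS list, so its counts are not separate from theirs. Ccnd1 and Ccnd2, the D-type cyclins, stood at 22.2 and 36.7 RPKM (0.607, 0.571 to 0.645) and at 25.1 and 28.3 RPKM (0.889, 0.849 to 0.931). Bcl2l1 stood at 10.2 and 11.1 RPKM (0.922, 0.830 to 1.026) and Pim1 at 3.29 and 5.39 RPKM (0.611, 0.505 to 0.742). Igf1, the growth factor that growth hormone induces, had the lowest ratio, 0.572 (1.14 against 1.99 RPKM), and Spry4 the highest, 1.60 (1.22 to 2.15; 2.21 against 1.38 RPKM). Passing 2-fold lower were Bcl6 and Igfals, both listed at 0 in the HFD library, so that 2 of 9 genes passed (0 to 4 over the alternatives) beside 20.1% of protein-coding genes. The count of 4 and the median of -0.81 came without the 20 most abundant genes in the scale. Under that scaling 5641 of all 16037 measured genes passed 2-fold lower, and the median of protein-coding genes was -0.61. Socs2, the STAT5-induced member, was thus higher in the HFD library while Cish and Igf1 were lower.

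The AMPK and PI3K genes that leptin signalling engages in peripheral tissue were nearly balanced, 11 of 20 higher (beside 44.0% of protein-coding genes). Of these 20, 0 passed 2-fold, beside 8.02% of protein-coding genes higher and 20.1% lower. On the scale set by coding genes 2 passed higher, beside 2676 of all 16037 measured genes. Without the 20 most abundant genes 2 passed lower, beside 5641 of all measured genes. The median of 0.06 was -0.45 without the 20 most abundant genes in the scale, beside -0.61 for protein-coding genes. Cpt1a, which admits fatty acids to mitochondria, stood at 83.6 and 70.6 RPKM (1.18, 1.15 to 1.22) and Acacb, the acetyl-CoA carboxylase that restrains it, at 50.3 and 37.3 RPKM (1.35, 1.30 to 1.40). Akt1 stood at 61.7 and 76.6 RPKM (0.806) and Mapk3, or ERK1, at 42.3 and 67.9 RPKM, the lowest ratio at 0.623 (0.584 to 0.665). Prkaa2, the AMPK catalytic subunit alpha 2, had the highest ratio, 2.02 (1.77 to 2.32; 6.79 against 3.36 RPKM), which falls short of 2-fold once 1 RPKM is added to both levels.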

How the data were processed

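RNA of sorted parietal cells was measured in 2 libraries, 1 per diet. Per the labels' protocols, ribosomal RNA was removed and libraries were made with an Ion Total RNA-Seq kit. Bedtools 2.25.0 and mm10 appear in the submitters' processing notes. No source used here names an aligner, a counting rule or an annotation. The values deposited by the authors are log2 of RPKM without a pseudocount, and 0 stands for 1 RPKM or less. This was read from the values: the smallest listed were 1.0006 and 1.0013 RPKM and the largest log2 value was 18.22. The members and gene lists were chosen with earlier results of these data known.

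Symbols came from GENCODE M21 (GRCm38), which matched 36308 of 38087 identifiers; the highest entry was used where several shared a symbol. Differences are log2(RPKM + 1) in the HFD library minus control, without rescaling. Depth was the step on which RPKM times length of single-exon genes was whole; 94 of 189 values (49.7%) and 259 of 725 (35.7%) at up to 12 reads were whole within 0.005. Reads per gene were taken from RPKM, exon length and depth, and ratio intervals are exact conditional binomial (Clopper-Pearson). They are approximate: the authors' gene lengths are unknown, and without molecular identifiers reads may repeat a molecule. No test, set test or p-value was possible with 1 library per group. Depth recovery, ratios and intervals were tested on simulated data. Named were every member; of each list up to 4 genes of highest mean level, both extremes of the ratio (50 reads or more), and those with a whole interval beyond 2-fold. A few further genes were named after their values were seen. Some genes of the lists are counted but not reported here by name. The planned comparison of protein sequences was replaced by coding sequences from the GENCODE transcripts, aligned with Biopython 1.88. Python 3.11.15, pandas 2.3.3 and scipy 1.17.1 were used.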

Additional observations from a re-analysis of the deposited data

How the results depend on the processing

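Of 63 member differences recomputed under 8 alternatives, 47 stayed within the counting error of the gene, 13 moved beyond it and 3 changed sign. Part of the 47 was fixed in advance. A minimum level only decides which genes are counted, and rescaling cannot move Socs3, listed at 0 with HFD. With the 20 most abundant genes kept out of the scaling total, the difference was -0.17 for Jak1, -0.0879 for Stat5b and -0.51 for Ptpn1, and the members' median was -0.34. That median was 0.42 with no pseudocount over genes listed in both, 0.0145 with no minimum and 0.49 scaled to the total of protein-coding genes. Members past 2-fold higher numbered 1 with the coding total and 2 at 1.5-fold; members past 2-fold lower numbered 0 with no pseudocount and where a whole counting interval had to pass, since Socs3 has no ratio. The threshold of 1.5-fold left the number lower as it was.

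List medians changed sign in 8 of 72 cases. Other JAK and STAT genes had medians of 0.0592 with no pseudocount, 0.0459 at a minimum of 5 RPKM and 0.11 with the coding total; other SOCS genes had 0.0835 with the coding total. The ligands had 1.99 with no pseudocount and 1.72 at the minimum of 5 RPKM, each from 1 gene. Without the 20 most abundant genes, the cytokine receptors had -0.48 and the AMPK and PI3K genes -0.45. Numbers of genes past 2-fold lower over all measured genes were 3833 as deposited and 5641 under that scaling, and 2000 and 1103 higher. Reads estimated from the longest coding transcript, which was added once the values had been seen, gave 6 of 7 member intervals apart from a ratio of 1, as all exons did. Why any of these values moved was not tested. Leaving Il17ra out of the receptors, also added once the values had been seen, gave a median of 0.0086. No paired analysis was possible because each group holds 1 library. The floor of 1 RPKM limits Lep, Lepr and the HFD value of Socs3. No replicate could be left out.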
